A study of Homo sapiens with 60 samples.

Results

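HT29, an established human colon cancer line with traits of both goblet cells and enterocytes, was compared after 24 h with an ethanol extract of Aucklandiae Radix at 370 µg/mL and at 14.8 µg/mL. These groups have 2 libraries each, labelled replicates 2 and 3 of one library set, and are 4 of the 60 libraries of the series. They were taken by herb and dose from the labels, so no measured value chose them. By the series' design text the high dose of such a herb is its IC20, a mildly growth-inhibiting concentration, and the low dose a dilution of it. All 4 libraries carry an extract of the same herb, the labels do not give the solvent content of each dose, and no vehicle library enters the comparison. The medium dose of 74 µg/mL (2 libraries) and Polygalae Radix, an ethanol extract of another root in the same library set at 380 and 15.2 µg/mL (2 libraries each), serve only to show where the high dose of Aucklandiae Radix differs. Whether the replicates were separate cultures is not in the labels. A p-value reflects only how far replicate libraries vary, which may be technical. Most of that variation comes from other groups, as the spread is shared over 56 libraries.

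Aucklandiae Radix is a dried medicinal root known for its sesquiterpene lactones, among them costunolide and dehydrocostus lactone. Several of the gene programs described here are run by transcription factors that stay inactive until a stress frees them. NRF2 is held back by KEAP1 and turns on genes for glutathione, thioredoxin and iron handling. ATF4 is translated when amino acids or protein folding fail and turns on amino acid transporters and synthetic enzymes, and TFEB moves to the nucleus when lysosomes or growth signals falter and turns on lysosomal genes. Gut epithelium, for its part, is renewed from LGR5-marked crypt stem cells that give rise to absorptive enterocytes and mucus-filled goblet cells.

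Sequences upstream of 6 genes that rose at the high dose are shown because each holds the core letters by which one of these factors is usually recognised. They cover 200 bases before the gene start, 5′ to 3′ on the gene's strand, from the RefSeq promoter table (GRCh38.p14). Capitals mark the match. In GCLM and TXNRD1 it is the antioxidant response core TGACNNNGC.
GCLM, chr1:93909431-93909630, minus strand: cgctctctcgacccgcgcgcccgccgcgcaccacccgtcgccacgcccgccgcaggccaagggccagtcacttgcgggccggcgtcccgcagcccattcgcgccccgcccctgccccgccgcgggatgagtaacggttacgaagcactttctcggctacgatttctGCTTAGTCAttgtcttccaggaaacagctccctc
TXNRD1, chr12:104215579-104215778, plus strand: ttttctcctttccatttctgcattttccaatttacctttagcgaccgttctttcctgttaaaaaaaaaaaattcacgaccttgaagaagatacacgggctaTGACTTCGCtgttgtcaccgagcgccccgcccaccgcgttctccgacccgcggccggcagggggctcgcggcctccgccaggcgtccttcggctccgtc
In MCOLN1 and ATP6V0D1 it is TCACGTGA, the core of the motif shared by lysosomal genes.
MCOLN1, chr19:7522424-7522623, plus strand: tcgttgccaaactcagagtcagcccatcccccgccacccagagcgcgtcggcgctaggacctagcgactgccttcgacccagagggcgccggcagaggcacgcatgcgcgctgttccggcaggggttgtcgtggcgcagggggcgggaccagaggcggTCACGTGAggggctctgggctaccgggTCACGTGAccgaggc
ATP6V0D1, chr16:67481158-67481357, minus strand: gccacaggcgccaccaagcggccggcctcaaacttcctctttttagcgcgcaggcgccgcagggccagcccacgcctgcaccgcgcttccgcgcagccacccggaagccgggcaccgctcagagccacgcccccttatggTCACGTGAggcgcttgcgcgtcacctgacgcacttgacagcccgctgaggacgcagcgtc
In ASNS and ATF3 it is the amino acid response core TGATGNAA.
ASNS, chr7:97872409-97872608, minus strand: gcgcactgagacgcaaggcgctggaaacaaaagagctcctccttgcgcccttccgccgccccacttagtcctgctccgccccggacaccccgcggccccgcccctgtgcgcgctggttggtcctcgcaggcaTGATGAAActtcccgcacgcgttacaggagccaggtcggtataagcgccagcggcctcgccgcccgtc
ATF3, chr1:212565207-212565406, plus strand: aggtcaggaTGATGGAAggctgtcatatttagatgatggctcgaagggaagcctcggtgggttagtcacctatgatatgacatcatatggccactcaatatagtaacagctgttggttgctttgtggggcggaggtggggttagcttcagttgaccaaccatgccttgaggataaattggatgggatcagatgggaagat
The match begins 34 bases before the gene start in GCLM, where it reads on the opposite strand, and 99 bases before it in TXNRD1. A second TXNRD1 match, on the opposite strand, begins 8 bases before the gene start. It runs past the bases shown and is not marked. MCOLN1 has 2 matches, at 42 and 15 bases, ATP6V0D1 has 1 at 60, ASNS 1 at 68 and ATF3 1 at 191. Over windows of 250 bases before to 50 after the gene start, searched on both strands, the antioxidant core stands in 13.6% of the 27305 windows of the table and in 15.1% of the 11329 that belong to a tested gene. It stands in 6 of 15 windows of the glutathione list and 2 of 12 of the thioredoxin and NRF2 list. It stands in 3 of 9 windows of the NADPH list, 1 of 10 of the aldo-keto and carbonyl reductases and 1 of 13 of the heme and iron list, where none of the 7 genes called higher holds it. The lysosomal core stands in 1.0% of all windows and 1.8% of those of tested genes, against 6 of 27 for lysosomal hydrolases and membrane proteins and 2 of 12 for the lysosomal proton pump. Autophagy genes hold it in 1 of 30 windows. For the amino acid core the shares are 3.7% of all windows and 1.7% of those of tested genes, against 5 of 26 for the amino acid stress list. Of tRNA synthetases 6 of 16 hold it, but only 1 of 9 of those called higher. A match describes letters in a window and not a bound site, and none of the 3 motifs contains another.

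The high dose moved most of the transcriptome. Of 16978 genes tested, 9969 were called (58.7%) at an adjusted p under 0.05, 5018 higher (29.6%) and 4951 lower (29.2%), by edgeR's quasi-likelihood test with Benjamini-Hochberg adjustment. With 1 library of another herb that is left out of the shared spread put back, here called the wider spread, 6174 genes were called. These were 2929 higher and 3245 lower of 17092 tested, and 2697 of them were at 2-fold or more. The values of the 2 doses did not overlap in 13511 genes (79.6%). The median log2 fold change of all genes was -0.02 and the median size, sign aside, was 0.43. At least a 2-fold change was seen in 1240 called genes that were higher (7.3%) and 1666 that were lower (9.81%), at least 4-fold in 407 that were higher and 507 that were lower, and at least 16-fold in 74 and 77. Because so many genes passed, the count of a gene group below is to be read against these shares. A count given with the wider spread is to be read against all calls of that fit. Protein-coding genes split nearly evenly, with 4579 higher and 4136 lower of 13090. Long non-coding RNAs leaned down, with 110 higher and 211 lower of 768 and a median of -0.31. Antisense genes did too, with 127 higher and 231 lower of 1176. In both classes lower calls were no more frequent than among all genes (29.2%), while higher calls were rarer than among all genes (29.6%). The strand setting is not stated, so counts of antisense genes may hold reads of their partner genes. Levels are in CPM (each count as a share of its library's scaled total), which compare one gene between libraries and not genes with each other, and values after ± are standard errors of a log2 fold change, high over low dose.

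**Figure D1:**
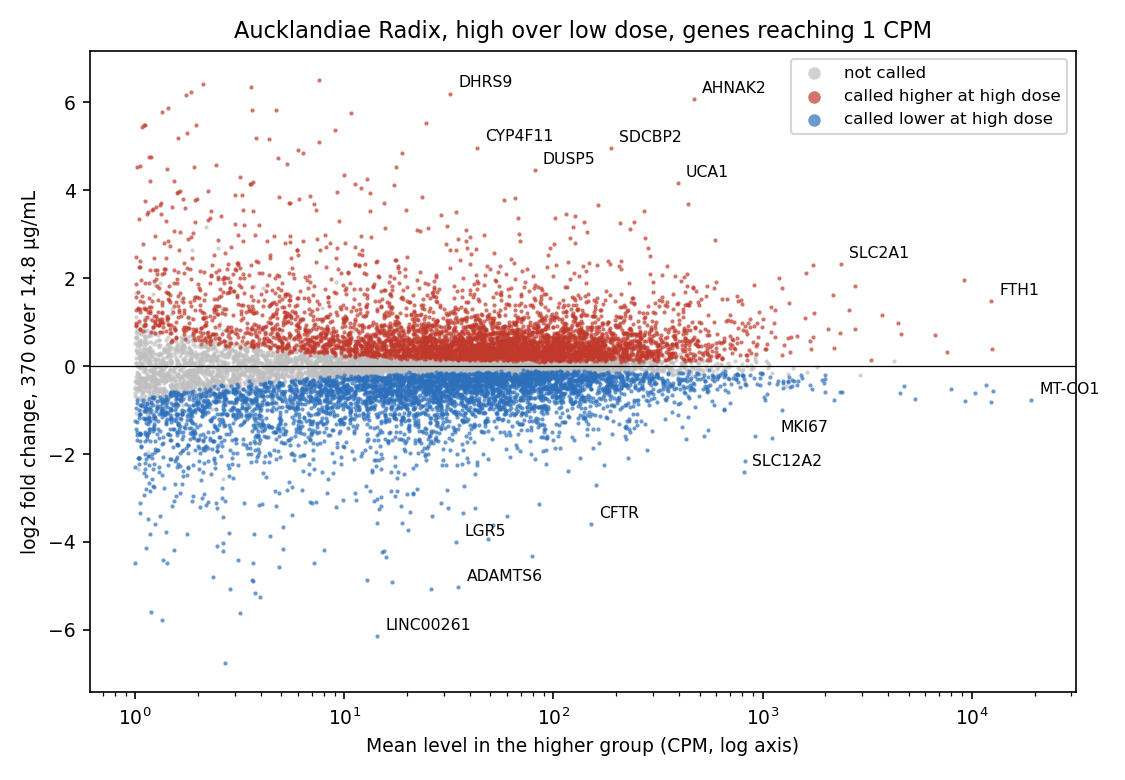
Each point is 1 of 13691 genes that reach a mean of 1 CPM and have counts in both groups. The x axis is the mean level in the higher group (CPM, log axis) and the y axis the log2 fold change of the high over the low dose. Called genes spread to both sides at every level, among them AHNAK2 at 6.07 and LINC00261 at -6.15, while the most abundant mitochondrial gene, MT-CO1, lies at -0.78.

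The 15 largest rises among called genes with a mean of at least 5 CPM in their higher group ran from FAM25A to DUSP5 and included a membrane scaffold, a collagen, secreted inhibitors and oxidising enzymes. AHNAK2, a very large scaffold at the inner cell membrane (chromosome 14, 104937244 to 104978357, GRCh38), had 442 and 498 CPM at the high dose, against 5.53 and 8.35 CPM at the low dose. Both high-dose libraries lay far above both low-dose ones, a 67.4-fold rise (log2 6.07 ± 0.12, adjusted p 3.62e-35). SDCBP2, a syntenin that binds membrane phospholipids, had 188 and 187 CPM at the high dose, against 6.34 and 5.82 CPM at the low dose (log2 4.95 ± 0.12). DHRS9, a dehydrogenase that oxidises retinol and steroids, had 32.4 and 31.8 CPM at the high dose, against 0.529 and 0.340 CPM at the low dose (log2 6.20 ± 0.27). The groups were again widely apart, and so they were for CYP4F11, a fatty acid and vitamin K hydroxylase, with 42.4 and 43.7 CPM at the high dose, against 1.5 and 1.25 CPM at the low dose (log2 4.97 ± 0.20). DUSP5, a phosphatase that inactivates ERK in the nucleus, had 84.5 and 78.2 CPM at the high dose, against 3.70 and 3.70 CPM at the low dose (log2 4.46 ± 0.12). The remaining large rises were in genes that were close to silent at the low dose. Among them were COL6A1, a chain of collagen VI (5.36 ± 0.46), CST1, a secreted cysteine protease inhibitor (5.52 ± 0.29), and SPRR1B, a precursor of the squamous cell envelope (4.85 ± 0.27). NAV3, a microtubule-associated guidance protein, rose by 5.75 ± 0.40, the adaptor gene SH2D5 by 5.10 ± 0.51, IGFN1 by 4.85 ± 0.54 and the divergent transcript APCDD1L-DT by 4.59 ± 0.48. FAM25A had 199 and 182 counts at the high dose, against 2 and 2 at the low dose, a ratio of 96.4 with a 95% counting interval of 37.4 to 356.

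The 15 largest falls under the same limit ran from LINC00261 to NAALADL2 and included the oxidase NOX1, the crypt stem cell receptor LGR5 and channels and carriers. LINC00261, a long non-coding RNA next to the endoderm factor FOXA2 (chromosome 20, 22547671 to 22578642), had 0.183 and 0.217 CPM at the high dose, against 15.2 and 13.6 CPM at the low dose (log2 -6.15 ± 0.19, adjusted p 9.26e-29). ADAMTS6, a secreted matrix metalloprotease, had 1.06 and 1.08 CPM at the high dose, against 35.5 and 34.5 CPM at the low dose (log2 -5.02 ± 0.15). Neither gene's groups came near each other. NOX1, the superoxide-forming oxidase of the colon, had 0.438 and 0.694 CPM at the high dose, against 17.7 and 16 CPM at the low dose (log2 -4.91 ± 0.17). LGR5, the R-spondin receptor that marks crypt stem cells, had 2.41 and 1.82 CPM at the high dose, against 32.8 and 35.5 CPM at the low dose (log2 -4.0 ± 0.12). In both genes the higher high-dose library stayed far below both low-dose ones. Also among the 15 largest falls were SLITRK6, a neuronal-type adhesion protein (-4.33 ± 0.15), MGAM2, a maltase-glucoamylase relative (-3.94 ± 0.21), KCNJ3, an inward-rectifying potassium channel (-4.47 ± 0.20), GABRP, a GABA-A receptor subunit (-4.24 ± 0.15), and SLC38A11, a member of the amino acid transporter family SLC38 (-4.86 ± 0.23). LOXL1, an oxidase that crosslinks elastin, fell by 4.20 ± 0.16 on the log2 scale, TDGF1, the NODAL co-receptor Cripto, by 4.17 ± 0.24, AKAP7, a protein kinase A anchor, by 4.18 ± 0.21 and NAALADL2 by 3.72 ± 0.20. COLCA1, annotated as antisense, fell by 5.06 ± 0.15; without a stated strand setting its reads cannot be told apart from those of its partner gene.

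By gain or loss in CPM, which is not corrected for gene length, the picture was another one. Among the 10 largest gains in mean CPM were EEF1A1, ACTB, PKM, AHNAK, ACTG1, PLEC, FTH1, FTL and SLC2A1, that is a translation elongation factor, 2 actins, a glycolytic kinase, the scaffold AHNAK and the linker plectin, both ferritin chains and the main glucose transporter. FTH1, the ferritin heavy chain, had 13109.9 and 11784 CPM at the high dose, against 4445 and 4559 CPM at the low dose (log2 1.47 ± 0.07). FTL, the ferritin light chain, had 9612 and 8875 CPM at the high dose, against 2439.5 and 2326 CPM at the low dose (log2 1.96 ± 0.07). Both ferritin chains showed no overlap of the groups, as did 79.6% of all tested genes. SLC2A1, the glucose transporter GLUT1, had 2352 and 2374 CPM at the high dose, against 462 and 486 CPM at the low dose (log2 2.32 ± 0.04, adjusted p 2.61e-37). All 10 of the largest losses were mitochondrial genes, led by MT-CO1 with 11329 and 11059 CPM at the high dose, against 20517 and 17898 CPM at the low dose (log2 -0.78 ± 0.12).

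**Figure D2:**
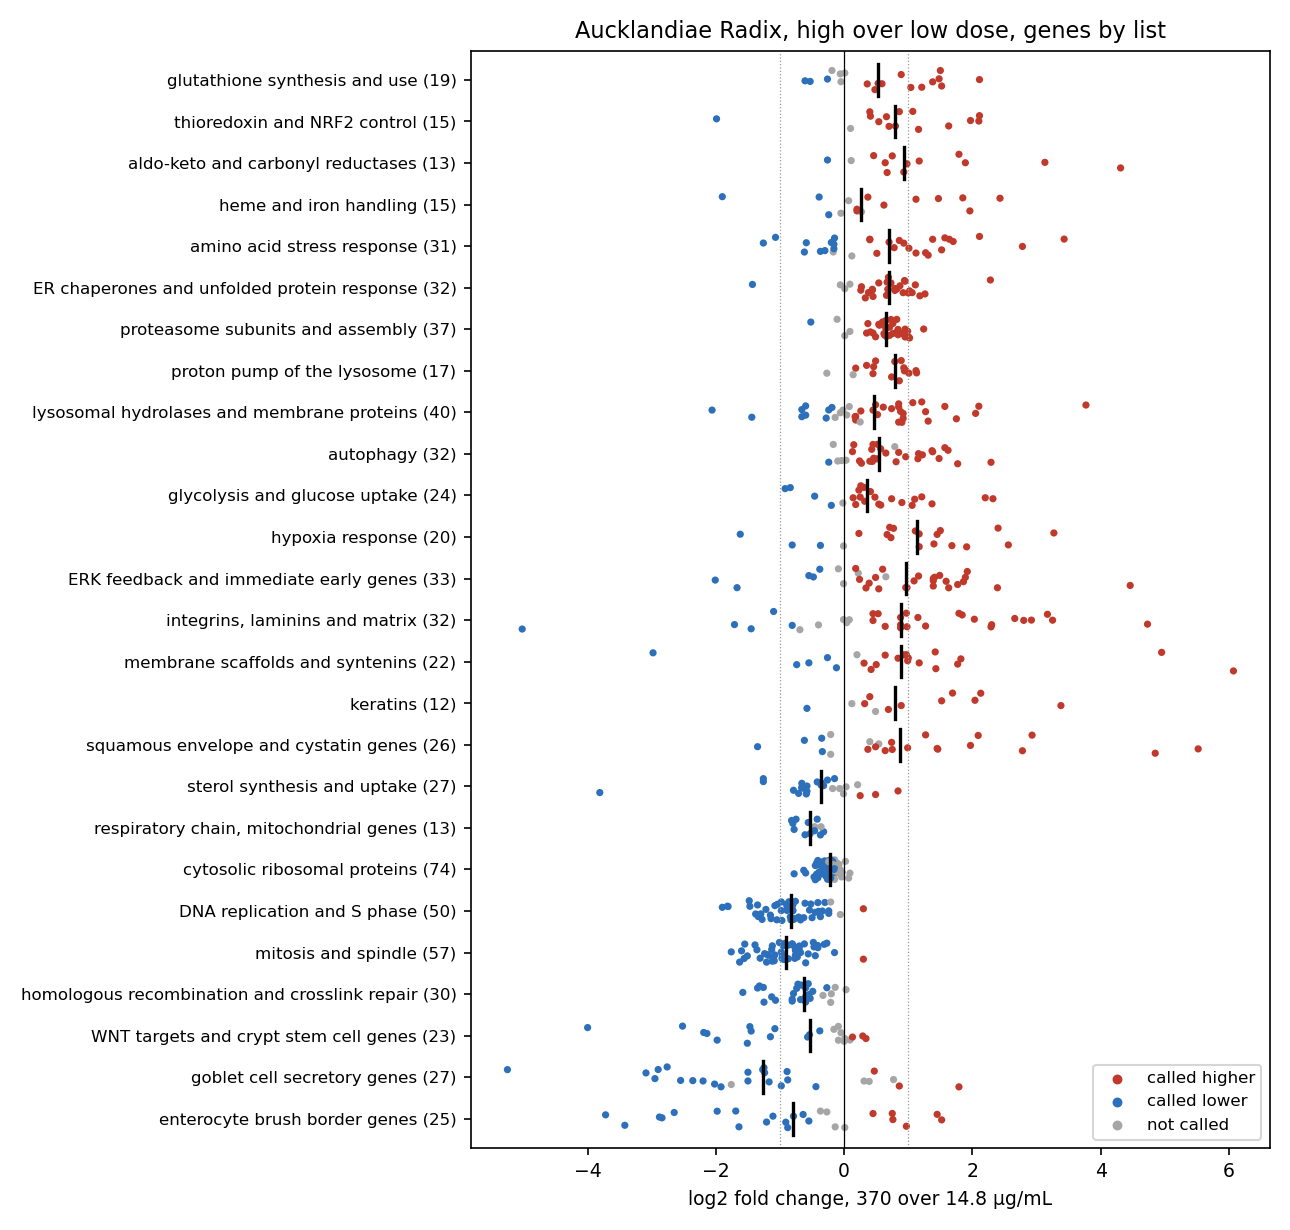
Each point is a tested gene of 1 of 26 lists (number tested in brackets), placed by its log2 fold change of the high over the low dose. Vertical bars are list medians, dotted lines mark 2-fold, and 3 genes with no count in 1 group are left out. Lists of stress, degradation, glucose and surface genes have medians right of 0, and those of cell division, mucus and crypt genes left of it.

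Genes of the NRF2 program rose broadly. In the list for glutathione synthesis and use, 12 of 19 genes tested were called higher and 3 lower, with a median log2 fold change of 0.53. GCLM, the modifier subunit of the rate-limiting ligase, had 176 and 179 CPM at the high dose, against 62.4 and 62.9 CPM at the low dose (log2 1.5 ± 0.08). Its catalytic partner GCLC rose by 1.21 ± 0.06, the cystine importer SLC7A11 by 1.52 ± 0.14, its heavy chain SLC3A2 by 1.38 ± 0.06 and the glutathione reductase GSR by 1.48 ± 0.04. CHAC1, which degrades glutathione, rose by 2.11 ± 0.14. In the thioredoxin and NRF2 control list, 13 of 15 genes tested were called higher and 1 lower, with a median log2 fold change of 0.80. TXNRD1, the thioredoxin reductase, had 1578 and 1644 CPM at the high dose, against 375 and 371 CPM at the low dose (log2 2.11 ± 0.05). SRXN1, which repairs overoxidised peroxiredoxins, had 294 and 287 CPM at the high dose, against 67.3 and 68.4 CPM at the low dose (log2 2.10 ± 0.05). Their groups lay far apart. OSGIN1 (1.97 ± 0.09), the small MAF gene MAFF (1.63 ± 0.10) and thioredoxin itself, TXN (1.16 ± 0.07), followed. NQO1, a quinone reductase and classical target, moved less (0.66 ± 0.05), as did NFE2L2, which encodes NRF2 (0.40 ± 0.07), and KEAP1 (0.41 ± 0.07). The 1 fall in this list was TXNIP, an inhibitor of thioredoxin and glucose uptake (-1.99 ± 0.10). With the wider spread 1 glutathione gene was called lower.

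Reductases, heme and iron genes followed the same direction, NADPH and drug-metabolising genes less so. Of aldo-keto and carbonyl reductases, 11 of 13 genes tested were called higher and 1 lower, with a median log2 fold change of 0.93. AKR1C1 had 236 and 227 CPM at the high dose, against 27.9 and 25.1 CPM at the low dose (log2 3.13 ± 0.10), though RSEM may divide reads among the near-identical AKR1C copies. PTGR1, a reductase of reactive alkenals and prostaglandins, had 234 and 226 CPM at the high dose, against 63.3 and 60.7 CPM at the low dose (log2 1.89 ± 0.05). AKR1B10 moved by 0.67 ± 0.06 only. Of heme and iron genes, 9 of 15 genes tested were called higher and 3 lower, with a median log2 fold change of 0.27. HMOX1, the inducible heme oxygenase, had 65.7 and 59.4 CPM at the high dose, against 11.1 and 12.1 CPM at the low dose (log2 2.43 ± 0.08). The biliverdin reductase BLVRB rose by 1.85 ± 0.08 and the heme synthesis enzyme ALAS1 by 1.12 ± 0.06. The iron exporter SLC40A1 fell to 24.7 CPM at the high dose, against 92.4 CPM at the low dose (log2 -1.90 ± 0.05), and the transferrin receptor TFRC changed little (-0.24 ± 0.06). Of 10 NADPH genes 4 were called higher and 3 lower, with ME1 (1.27 ± 0.05) and PGD (0.99 ± 0.04) among the first and IDH1 (-0.86 ± 0.05) and H6PD (-1.25 ± 0.08) among the second. Of phase I and II enzymes 10 of 23 were called higher and 8 lower. CYP1A1, the main target of the aryl hydrocarbon receptor, rose by 3.69 ± 0.26, CYP4F3 by 3.55 ± 0.20 and the sterol sulfotransferase SULT2B1 by 2.51 ± 0.08, while the glucuronosyltransferase UGT2B7 was 11.7-fold lower in counts (95% counting interval 4.72 to 37.2). UGT2B and CYP4F genes are near-copies, so their values are uncertain to that extent. Of ABC efflux pumps 7 of 13 were called higher and 3 lower. ABCG1 (2.12 ± 0.17) and ABCC2 (1.85 ± 0.30) rose, ABCG2 fell (-0.92 ± 0.04) and ABCB1 did not pass the test (-0.59 ± 0.48, adjusted p 0.302). With the wider spread 0 reductases and 1 heme or iron gene were called lower, and TFRC was not called (adjusted p 0.516).

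Most amino acid and protein-folding stress genes rose, but the listed enzymes of serine and proline synthesis fell. Of the amino acid stress list, 19 of 31 genes tested were called higher and 10 lower, with a median log2 fold change of 0.70. ATF3, a stress-induced repressor, had 32.6 and 25.6 CPM at the high dose, against 2.76 and 2.64 CPM at the low dose (log2 3.43 ± 0.19). DDIT3, the pro-apoptotic factor CHOP, had 33.0 and 28.4 CPM at the high dose, against 3.82 and 5.10 CPM at the low dose (log2 2.78 ± 0.14). ASNS, the asparagine synthetase, had 183 and 172 CPM at the high dose, against 54.9 and 54.2 CPM at the low dose (log2 1.70 ± 0.05). No low-dose library reached a high-dose one in these 3, a separation that 79.6% of all tested genes show in one direction or the other. PPP1R15A, which ends the translation block, rose by 1.64 ± 0.13 and the pseudokinase TRIB3 by 1.27 ± 0.06. ATF4 mRNA itself fell slightly (-0.30 ± 0.06). The falls below were named after their values were seen. The largest of the list were in ALDH18A1 (-1.26), which starts proline synthesis, and PHGDH (-1.07), which starts serine synthesis. SHMT2 (-0.62), PSPH (-0.59), PYCR1 (-0.37), PCK2 (-0.2), MTHFD2 (-0.16) and PSAT1 (-0.15) were called lower too. Besides ASNS, the synthetic enzyme CTH (0.51) was called higher. Of 20 tRNA synthetases 10 were called higher, none by 2-fold, led by GARS1 (0.57 ± 0.05), and 4 were called lower. Of the ER chaperone and unfolded protein list, 28 of 32 genes tested were called higher and 1 lower, with a median log2 fold change of 0.70. The 1 fall was lost without low-dose replicate 2. DNAJB9 rose by 2.28 ± 0.10, the sensor kinase ERN1 by 1.26 ± 0.07 and the main ER chaperone HSPA5 by 1.06 ± 0.05, with 871 CPM at the high dose, against 419 CPM at the low dose. XBP1 did not pass the test (0.01 ± 0.05, adjusted p 0.837). Heat shock genes were mixed, 15 higher and 8 lower of 28. BAG3 (0.98 ± 0.06) and DNAJB1 (0.53 ± 0.06) rose, HSPB1 fell (-1.13 ± 0.11), and HSPA1A did not pass the test (0.06 ± 0.08, adjusted p 0.548), although its reads may be shared with HSPA1B. Of proteasome genes 33 of 37 were called higher and 1 lower, with a median of 0.65. PSMB5, a catalytic subunit, rose by 0.55 ± 0.06 and PSMC4, a base ATPase, by 1.24 ± 0.05, the largest rise of the list. Under the wider spread 4 genes of the amino acid list were called lower, 6 tRNA synthetases higher and 2 lower, and 9 heat shock genes higher. ATF4 then missed the threshold (adjusted p 0.0683).

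Proton pump and autophagy genes rose with few exceptions, and lysosomal hydrolases and membrane proteins with more. Of the subunits of the proton pump that acidifies lysosomes, 15 of 17 tested were called higher and 0 lower, with a median log2 fold change of 0.79. ATP6V0D1 had 107 and 101 CPM at the high dose, against 60.9 and 63.6 CPM at the low dose (log2 0.74 ± 0.07), and the largest change was in ATP6V0B (1.13 ± 0.07). Of hydrolases and lysosomal membrane proteins, 25 of 40 tested were called higher and 9 lower, with a median log2 fold change of 0.47. CTSL, a cathepsin protease, had 57.6 and 58.3 CPM at the high dose, against 4.07 and 4.42 CPM at the low dose (log2 3.77 ± 0.12, 13.6-fold). IDS, iduronate sulfatase, rose by 2.10 ± 0.05, GLA, alpha-galactosidase, by 2.05 ± 0.06, SMPD1, acid sphingomyelinase, by 1.75 ± 0.16 and the calcium channel MCOLN1 by 1.57 ± 0.10. LAMP1 rose by 0.45 ± 0.04. Among the 9 falls were the cathepsin genes CTSS (-2.06 ± 0.20), CTSH (-1.44) and CTSZ (-0.6), the last 2 named after their values were seen. Of autophagy genes, 26 of 32 tested were called higher and 1 lower, with a median log2 fold change of 0.54. SQSTM1, the cargo receptor p62, had 1779.9 and 1706 CPM at the high dose, against 351 and 360.0 CPM at the low dose (log2 2.29 ± 0.05). The receptor OPTN rose by 1.77 ± 0.07, the vesicle proteins MAP1LC3B by 1.62 ± 0.06 and GABARAPL1 by 1.57 ± 0.13. The 1 fall, in the initiating kinase ULK1 (named after its value was seen), was -0.24 on the log2 scale and was lost without high-dose replicate 2, low-dose replicate 2 or low-dose replicate 3 and with the wider spread.

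Glucose uptake, glycolysis and hypoxia-linked genes rose. Of the glycolysis list, 19 of 24 tested were called higher and 4 lower, with a median log2 fold change of 0.36. Next to SLC2A1 stood the lactate exporter SLC16A3 (2.20 ± 0.08), PFKP (1.37 ± 0.05) and ALDOC (1.21 ± 0.08). Lactate dehydrogenase LDHA rose by 0.48 ± 0.04 and hexokinase HK2 by 0.32 ± 0.05. Of hypoxia-linked genes, 16 of 20 tested were called higher and 3 lower, with a median log2 fold change of 1.14. NDRG1, a stress-induced cytoplasmic protein, had 142 and 139 CPM at the high dose, against 14.8 and 14.3 CPM at the low dose (log2 3.27 ± 0.09). BHLHE40 rose by 2.56 ± 0.10, the prolyl hydroxylase P4HA2 by 1.91 ± 0.08 and the angiogenic factor VEGFA by 1.17 ± 0.07. CA9, a carbonic anhydrase and the usual HIF-1 marker, fell instead, with 9.38 and 8.24 CPM at the high dose, against 27.9 and 26.7 CPM at the low dose (log2 -1.62 ± 0.09). The call of HK2 was lost with the wider spread (adjusted p 0.434).

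Lipid synthesis genes fell by modest amounts. Of sterol genes, 3 of 27 tested were called higher and 19 lower, with a median log2 fold change of -0.36. HMGCS1, the synthase early in the route, fell by 0.58 ± 0.05. Of fatty acid synthesis genes 8 of 14 were called lower, FASN (-0.44 ± 0.08) and SCD (-0.35 ± 0.05) among them, and 3 higher, including the elongase ELOVL1 (1.68 ± 0.05). Of fatty acid oxidation genes and PPAR targets 9 of 28 were called higher and 10 lower. The import enzyme CPT1A rose (0.37 ± 0.05), whereas HADH (-2.06 ± 0.06) fell. FABP1, a fatty acid carrier, was 11-fold lower in counts, with a 95% counting interval of 4.81 to 31.1. The wider spread left 1 sterol gene called higher and 11 lower, and 4 fatty acid synthesis genes lower. HMGCS1 (adjusted p 0.0586), SCD (adjusted p 0.376) and CPT1A (adjusted p 0.218) then missed the threshold.

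Transcripts encoded by mitochondrial DNA fell, while nuclear genes listed for the same organelle moved both ways. Medians of the nuclear lists below ran from -0.06 to 0.1. Of the 13 protein genes of the mitochondrial genome 0 were called higher and 11 lower, with a median of -0.53. MT-CO3 had 7464 and 6500.1 CPM at the high dose, against 13296 and 11426 CPM at the low dose (log2 -0.82 ± 0.13). MT-CYB changed by -0.53 ± 0.17 and MT-ND1 by -0.61 ± 0.20 on the log2 scale. The falls were called in 7 genes without high-dose replicate 2, in 5 without high-dose replicate 3 and in 3 without low-dose replicate 2. Mitochondrial genes took 6.519% and 6.186% of all counts at the high dose, against 11.034% and 9.816% at the low dose. Shares of the 2 medium-dose libraries were 9.504% and 9.613%. Of 59 nuclear respiratory chain genes 12 were called higher and 17 lower, none by 2-fold, and without high-dose replicate 2 only 5 were called higher. Of the citric acid cycle genes 4 of 20 were called higher and 8 lower, and the one 2-fold fall was IDH2 (-1.87 ± 0.06). Of mitochondrial ribosome genes 25 of 58 were called higher, 1 of them by 2-fold or more (log2 1.4), and 10 lower. In libraries from bulk cultures, fewer cells of a state and less RNA per cell cannot be told apart. In the fit with the wider spread 4 mitochondrial protein genes were called lower, and MT-CYB was not among them (adjusted p 0.081). It called 1 nuclear respiratory gene higher and 6 lower, 1 citric acid cycle gene higher and 5 lower, and 6 mitochondrial ribosome genes higher and 3 lower.

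Genes of cell division fell almost without exception. Of the DNA replication list, 1 of 50 tested were called higher and 47 lower, with a median log2 fold change of -0.83. MCM2, a helicase subunit, had 108 and 119 CPM at the high dose, against 235 and 244 CPM at the low dose (log2 -1.08 ± 0.06). RRM2, the deoxynucleotide-making reductase, had 107 and 108 CPM at the high dose, against 299 and 294 CPM at the low dose (log2 -1.47 ± 0.04). PCNA fell by 0.83 ± 0.05, the cyclin CCNE2 by 1.82 ± 0.12 and the repressor E2F8 by 1.90 ± 0.08. The 1 rise was in the cyclin gene CCNE1 (log2 0.30), named after its value was seen. Of mitotic genes, 1 of 57 tested were called higher and 56 lower, with a median log2 fold change of -0.91. The 1 rise here was in the phosphatase gene CDC25B (log2 0.30), also named after its value was seen. MKI67, the proliferation marker Ki-67, had 338 and 380.1 CPM at the high dose, against 1115 and 1111 CPM at the low dose (log2 -1.63 ± 0.13). TOP2A, the decatenating topoisomerase, had 172 and 176 CPM at the high dose, against 534 and 519.6 CPM at the low dose (log2 -1.60 ± 0.10). Every high-dose library stood below every low-dose library for both, where 79.6% of all tested genes have doses that do not overlap. AURKB fell by 1.36 ± 0.07 and CDK1 by 0.96 ± 0.08, but CCNB1 by only 0.48 ± 0.05. Of recombination and crosslink repair genes 0 of 30 were called higher and 25 lower, BRIP1 (-1.58 ± 0.14) and FANCD2 (-1.13 ± 0.07) among them. Of nucleotide synthesis genes 18 of 29 were called lower, including TYMS (-1.30 ± 0.06) and SHMT1 (-1.37 ± 0.05). Kinesin motors, as a symbol family, leaned the same way: 9 of 35 were called higher and 19 lower. Histone genes did not: 18 of 42 were called higher and 10 lower, with H4C8 (3.97 ± 0.33), H2BC4 (2.96 ± 0.27) and H1-2 (2.31 ± 0.19) among the rises. Histone genes of a cluster are near-copies, so their counts are uncertain. Kinesins called higher numbered 5 without high-dose replicate 3 and 5 with the wider spread.

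Cell cycle inhibitors and death regulators were split. CDKN1A, the inhibitor p21, had 105 and 99.5 CPM at the high dose, against 9.43 and 10.3 CPM at the low dose (log2 3.37 ± 0.09). CDKN2B, the inhibitor p15, had 42.1 and 45.0 CPM at the high dose, against 11.5 and 11.9 CPM at the low dose (log2 1.90 ± 0.09). CDKN2C, p18, went the other way (-2.89 ± 0.15). Of p53-linked and inhibitor genes 12 of 31 were called higher and 14 lower. The antiproliferative BTG2 fell by 3.35 ± 0.09 and MDM2 by 0.40 ± 0.07 on the log2 scale. GDF15 rose by 0.78 ± 0.10. Of apoptosis regulators 14 of 24 were called higher and 9 lower. BIRC3, a caspase-binding inhibitor, had 35.2 and 35.0 CPM at the high dose, against 4.39 and 5.14 CPM at the low dose (log2 2.88 ± 0.14). The protective BCL2L1 rose by 1.03 ± 0.06 and MCL1 by 0.77 ± 0.05, the death receptor TNFRSF10A by 1.20 ± 0.09, and its ligand TNFSF10 fell by 1.26 ± 0.17. With the wider spread 4 apoptosis regulators were called lower.

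Ribosomal protein and splicing genes drifted down, and several long non-coding RNAs moved far. Of 74 cytosolic ribosomal protein genes 50 were called lower and 0 higher, with a median of only -0.22 and RPL13A (-0.78 ± 0.07) at the low end. Without high-dose replicate 3 the count of lower genes was 23, and with the wider spread it was 4. Ribosome biogenesis genes did not share the fall, with 20 higher and 6 lower of 43. MYC changed by 0.17 ± 0.07, a call that was lost without high-dose replicate 2 (adjusted p 0.0843) or low-dose replicate 2 (adjusted p 0.121). Of splicing regulators 15 of 30 were called lower, HNRNPA1 (-0.99 ± 0.06) among them. UCA1, a cytoplasmic long non-coding RNA of many carcinomas, had 388 and 398 CPM at the high dose, against 21.9 and 22 CPM at the low dose (log2 4.16 ± 0.10). The nuclear RNA MALAT1 had 2330.2 and 2023 CPM at the high dose, against 735 and 688 CPM at the low dose (log2 1.61 ± 0.15), and NEAT1 rose by 0.84 ± 0.09. Of the long non-coding RNAs listed, most of them chosen as nuclear but UCA1 included, 5 of 18 were called higher and 12 lower. HOTTIP, from the HOXA locus, fell (-2.14 ± 0.09). None of the 23 host genes of small nucleolar RNAs was called higher and 12 were called lower. The wider spread also left 8 biogenesis genes called higher and 3 lower, and 7 splicing regulators lower. RPL13A (adjusted p 0.0569) and MYC (adjusted p 0.823) were not called in it.

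Most markers of the crypt and of goblet and absorptive cells fell. Of WNT target and crypt stem cell genes, 3 of 23 tested were called higher and 13 lower, with a median log2 fold change of -0.54. Beside LGR5, the stem cell factor ASCL2 fell by 2.52 ± 0.24 and the ephrin receptor EPHB3 by 2.14 ± 0.11 on the log2 scale. AXIN2, the general WNT feedback gene, rose slightly, with 105 and 107 CPM at the high dose, against 82.9 and 85.2 CPM at the low dose (log2 0.34 ± 0.04). Of goblet cell genes, 3 of 27 tested were called higher and 20 lower, with a median log2 fold change of -1.27. MUC2, the main intestinal gel-forming mucin, had 2.99 and 2.65 CPM at the high dose, against 24.4 and 17.9 CPM at the low dose (log2 -2.90 ± 0.33). ATOH1, the factor that commits cells to the secretory line, had 3 and 2 counts at the high dose, against 89 and 113 at the low dose, 39.9-fold lower with a counting interval of 16.8 to 124. Both of its high-dose libraries were near 0. FCGBP, a mucus protein, fell by 2.55 ± 0.20 and AGR2, a mucin-folding protein, by 0.89 ± 0.07. KLF4 (1.79 ± 0.10) and SPDEF (0.47 ± 0.08) were the goblet factors that rose. Of the mucin list, which does not hold MUC2, 3 of 11 were called higher and 3 lower. MUC5AC (-1.49 ± 0.25) and MUC13 (-1.67 ± 0.07) fell and the transmembrane MUC16 (2.08 ± 0.33) and MUC17 (1.21 ± 0.22) rose. Of enterocyte genes 6 of 25 were called higher and 15 lower. CDX2, the gut identity factor, fell by 1.98 ± 0.20, the glucose importer SLC5A1 by 2.88 ± 0.13 and villin, VIL1, by 0.79 ± 0.04. KRT20, a keratin of mature colon cells, rose, with 672 and 682 CPM at the high dose, against 239 and 232 CPM at the low dose (log2 1.52 ± 0.06). The rises of the crypt list, AXIN2 included (adjusted p 0.567), were all lost with the wider spread.

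Several transcription factors of gut and liver fate fell too. In the list of Kruppel and HNF family factors, 13 of 42 were called higher and 20 lower. HNF4A had 36.8 and 39.5 CPM at the high dose, against 86.6 and 89.3 CPM at the low dose (log2 -1.21 ± 0.06). FOXA2, the neighbour of LINC00261, fell by 0.98 ± 0.13. MYB, a factor of crypt progenitors, had 4.12 and 4.99 CPM at the high dose, against 42.5 and 41.7 CPM at the low dose (log2 -3.22 ± 0.09). The hindgut homeobox genes HOXB9 (-1.91 ± 0.06) and HOXA13 (-1.5 ± 0.05) fell, and KLF5 did by less (-0.33 ± 0.07). Of bile acid and lipid receptor genes 9 of 20 were called higher and 8 lower. NR0B2, the repressor SHP, had 0.475 and 0.304 CPM at the high dose, against 4.80 and 5.36 CPM at the low dose (log2 -3.67 ± 0.29), and the clock repressor NR1D1 rose by 1.65 ± 0.10. Of retinoid genes 7 of 14 were called higher and 5 lower, or 3 lower under a filter at 1 CPM. ALDH1A3, which makes retinoic acid, rose (1.28 ± 0.07). ALDH1A1, which makes it too, had 304 and 301 CPM at the high dose, against 918 and 915 CPM at the low dose (log2 -1.60 ± 0.04). Chromatin genes leaned down, 24 of 46 lower and 12 higher, DNMT1 (-0.90 ± 0.06) and EZH2 (-0.82 ± 0.06) lower and HDAC9 (3.80 ± 0.33) and HMGA2 (1.5 ± 0.08) higher. Among 447 zinc finger genes named ZNF the calls were balanced, 118 higher and 114 lower. Counts of genes called higher with the wider spread were 6 for Kruppel and HNF factors, 4 for retinoid genes and 56 for ZNF genes, of which 69 were called lower.

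**Figure D3:**
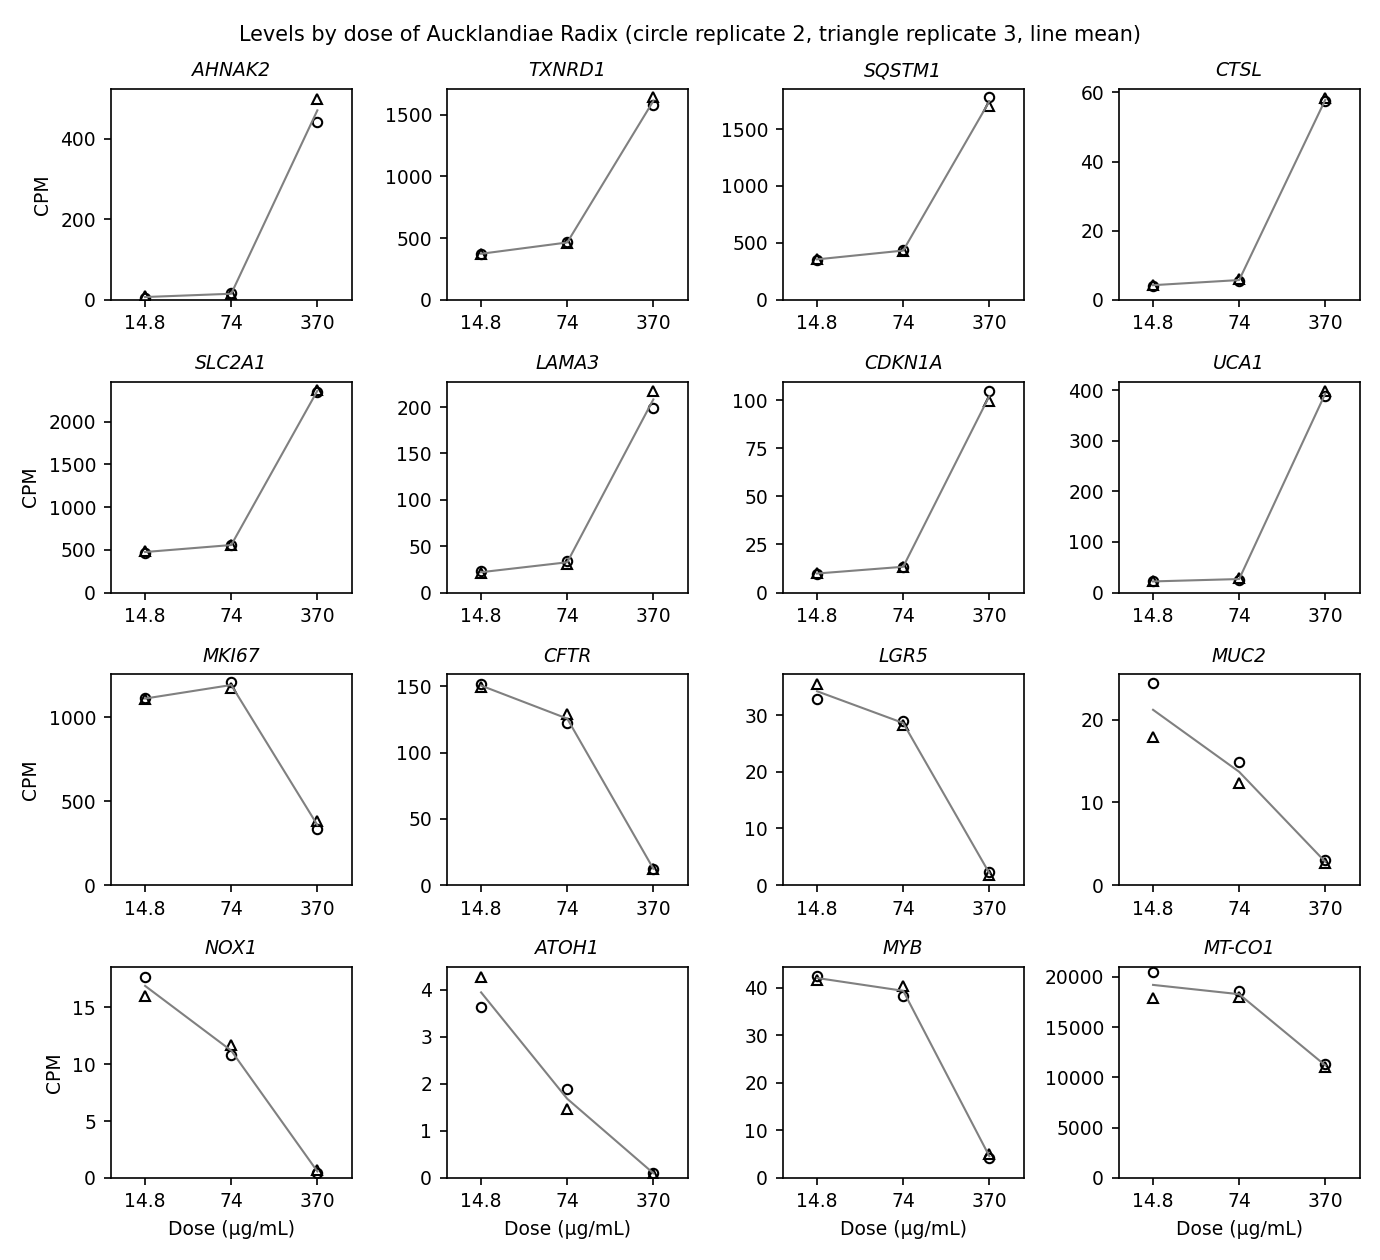
CPM of 16 genes in both libraries at 14.8, 74 and 370 µg/mL of Aucklandiae Radix, with each y axis starting at 0. Most panels show a small step between 14.8 and 74 µg/mL and a large one at 370 µg/mL, while MUC2, NOX1 and ATOH1 are already lower at 74 µg/mL.

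Genes of the matrix, keratin and squamous envelope lists rose more often than they fell. Of integrin, laminin and matrix genes, 22 of 32 tested were called higher and 5 lower, with a median log2 fold change of 0.88. LAMA3, a laminin chain of the epithelial basement membrane, had 199 and 218 CPM at the high dose, against 22.7 and 21.1 CPM at the low dose (log2 3.25 ± 0.08), and the laminin chain LAMB3 rose by 2.03 ± 0.07. ITGA2, a collagen receptor, had 439 and 491 CPM at the high dose, against 134 and 134 CPM at the low dose (log2 1.79 ± 0.11). The inhibitor TIMP2 rose by 2.92 ± 0.06. Of keratins 9 of 12 were called higher and 1 lower (0 lower without replicate 3 of either dose), KRT80 (2.04 ± 0.06) and KRT15 (2.13 ± 0.10) among the rises, while KRT18 did not pass the test (0.12 ± 0.07, adjusted p 0.112). Of squamous envelope and cystatin genes, 18 of 26 tested were called higher and 4 lower, with a median log2 fold change of 0.87. ECM1 rose by 2.93 ± 0.12. The envelope precursor IVL did not pass the test (0.40 ± 0.33, adjusted p 0.317). Of membrane scaffolds 16 of 22 were called higher and 5 lower (3 lower without high-dose replicate 3), CAV1 (1.82 ± 0.09) and CAV2 (1.77 ± 0.08) among the rises and ANXA13 (-2.98 ± 0.14) the largest fall. Of actin and YAP-linked genes 18 of 31 were called higher and 4 lower, or 2 lower without low-dose replicate 2. CCN1 rose (2.24 ± 0.12), whereas the sister gene CCN2 did not pass the test (0.28 ± 0.18, adjusted p 0.179). Of tubulin and microtubule genes 12 of 22 were called higher and 5 lower. Neuronal TUBB3 was the most changed tubulin (3.19 ± 0.13), and TUBB fell (-0.43 ± 0.04). Of tight junction genes 14 of 23 were called higher and 6 lower, and the largest change was in the cation-pore claudin CLDN2 (-2.7 ± 0.06). The wider spread called 4 keratins and 5 tight junction genes higher. It called lower 2 squamous envelope and cystatin genes, 2 scaffolds, 1 actin or YAP-linked gene, 3 tubulin or microtubule genes and 2 tight junction genes.

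Most immediate early genes and the EGF receptor ligands EREG, HBEGF and AREG rose, and FGFR2 and FGFR4 fell. Of ERK feedback and immediate early genes, 24 of 33 tested were called higher and 5 lower, with a median log2 fold change of 0.96. Without high-dose replicate 3 the count of lower genes was 3. FOSL1, an AP-1 subunit, had 184 and 179 CPM at the high dose, against 36.3 and 33.1 CPM at the low dose (log2 2.39 ± 0.10). EGR1 rose by 1.89 ± 0.16, while the feedback genes DUSP6 (0.39 ± 0.09) and SPRY4 (0.34 ± 0.07) moved little. Of the EGF receptor list 10 of 21 were called higher and 8 lower. ERRFI1, the feedback inhibitor MIG6, had 602 and 588 CPM at the high dose, against 82.3 and 80.6 CPM at the low dose (log2 2.87 ± 0.07). The ligands EREG (1.92 ± 0.09), HBEGF (1.76 ± 0.11) and AREG (1.57 ± 0.07) rose. Of receptors EGFR rose (0.77 ± 0.09), a call that was lost with the wider spread (adjusted p 0.142), and FGFR4 (-1.93 ± 0.06) and FGFR2 (-2.18 ± 0.07) fell. FGFR1, close to silent, had 5 and 10 counts at the high dose, against 0 and 3 at the low dose. It was called higher (adjusted p 0.0485), but not without high-dose replicate 3 (adjusted p 0.312), without low-dose replicate 2 (adjusted p 0.304), with the wider spread (adjusted p 0.0801) or by DESeq2 (adjusted p 0.0839). Of NF-kB and chemokine genes 15 of 29 were called higher and 8 lower, or 5 lower without high-dose replicate 3. TNFAIP3, the brake A20, rose by 1.95 ± 0.19, CXCL8 by 1.77 ± 0.10 and NFKBIA by 0.61 ± 0.09. Interferon and MHC genes were divided, 16 higher and 11 lower of 36. The class I gene HLA-E rose (1.5 ± 0.06) with the class I activator NLRC5 (2.84 ± 0.33), and OAS3 (-1.62 ± 0.08) and IFITM3 (-1.57 ± 0.16) fell. In the Notch list 5 of 19 were called higher and 8 lower. The ligand JAG1 rose (2.04 ± 0.08) and the ligand DLL4 fell (-2.64 ± 0.19), with HES1 not past the test (-0.14 ± 0.11, adjusted p 0.266). Of BMP and TGF-beta genes 7 of 20 were called higher and 8 lower, and without high-dose replicate 2 the count of lower genes was 5. TGFB1 (1.78 ± 0.07), SMAD3 (1.46 ± 0.05) and ID1 (1.14 ± 0.15) rose. The wider spread called 6 genes of the EGF receptor list and 3 of the Notch list higher. It called lower 3 ERK feedback and immediate early genes, 3 NF-kB and chemokine genes, 6 interferon and MHC genes and 3 BMP and TGF-beta genes, and SPRY4 was not called (adjusted p 0.51).

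Of ion channels and pumps 16 of 36 were called higher and 14 lower, and the genes by which crypts secrete chloride were among the falls. CFTR, the chloride channel of crypt cells, had 12.4 and 12.4 CPM at the high dose, against 152 and 149 CPM at the low dose (log2 -3.60 ± 0.11). SLC12A2, which loads cells with chloride, had 146 and 160.1 CPM at the high dose, against 821 and 809 CPM at the low dose (log2 -2.41 ± 0.09). KCNE3, a subunit of the basal potassium channel, had 4.05 and 4.34 CPM at the high dose, against 50 and 52.5 CPM at the low dose (log2 -3.61 ± 0.09). The bicarbonate carrier SLC4A4 fell by 3.10 ± 0.21. High and low dose did not overlap in any of these 4, nor in 79.6% of all tested genes. The calcium pump ATP2B4 rose (2.11 ± 0.09). Of 261 solute carriers 109 were called higher and 80 lower. Of NADPH oxidase genes 2 of 7 were called higher and 5 lower. The NOX1 partner NOXO1 fell (-2.14 ± 0.14) and DUOXA1 rose (2.12 ± 0.41). Of metallothionein and zinc transport genes 8 of 19 were called higher and 7 lower, the metallothionein MT2A (1.10 ± 0.13) among the rises. Of its relatives MT1E (-0.78 ± 0.13) and MT1X (-0.68 ± 0.28) fell. MT1A was called lower too, at 7.16-fold lower in counts (95% counting interval 2.51 to 28). The call of MT1X was lost without replicate 3 of either dose (adjusted p 0.301 for the high and 0.259 for the low dose) and by DESeq2 (adjusted p 0.0521), and those of MT1E and MT1X with the wider spread (adjusted p 0.0634 and 0.255). Metallothioneins are near-copies, so their counts are uncertain. Of glycosylation and secretory route genes 31 of 45 were called higher and 6 lower, with the fucosyltransferase FUT3 (2.11 ± 0.17) and the coat gene SEC23B (0.85 ± 0.04) among the first. Of 20 DUSP genes 15 were called higher and 4 lower. In the interleukin family IL6R (3.14 ± 0.16) and IL18 (2.37 ± 0.14) rose. Lists and families together hold 717 of the 2906 genes called with at least a 2-fold change. Under the wider spread 7 channels and pumps, 72 solute carriers, 1 NADPH oxidase gene, 2 metallothionein or zinc transport genes and 14 glycosylation genes were called higher. Called lower were 2 NADPH oxidase genes, 4 metallothionein or zinc transport genes and 2 DUSP genes.

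Colon epithelium markers were present, with most of their summed level from the keratins KRT8 and KRT18. Over 12 genes the sum was 14909 to 15124 CPM at the high dose and 12353 to 12901 CPM at the low dose. Of these genes 5 were called higher (3 with the wider spread) and 4 lower, and 3 were not called. TSPAN8 fell, with 3136 and 2438 counts at the high dose, against 6776 and 7220 at the low dose. CDX2 had a mean of 1.10 CPM at the high dose, against 4.34 CPM at the low dose. The epithelial adhesion gene EPCAM (0.11 ± 0.06, adjusted p 0.137) was high in all 4 libraries, with a mean of 550.5 CPM at the high dose, against 511 CPM at the low dose. Of fibroblast markers 3 of 10 were above the filter on low counts and summed to 3.10 to 3.70 CPM at the high dose and 3.20 to 3.40 CPM at the low dose, with COL1A2 and PDGFRA at 0. Of blood cell markers 4 of 11 were above it and summed to 1102 to 1174 CPM at the high dose and 1471 to 1489 CPM at the low dose, almost all of it lysozyme, LYZ. The T cell gene CD3E was at 0 and the pan-leukocyte gene PTPRC had at most 1 count. Of hepatocyte markers 3 of 8 were above it and summed to 281 to 290.4 CPM at the high dose and 310.1 to 320.5 CPM at the low dose, nearly all of it SERPINA1, with albumin, ALB, at 0. Of endothelial markers 4 of 7 were above it and summed to 132 to 136 CPM at the high dose and 44.0 to 46.0 CPM at the low dose, most of it the adhesion gene ESAM, with CDH5 and KDR at 0. CD68, a lysosomal membrane protein of macrophages, rose (2.98 ± 0.17), and so did the adhesion gene PECAM1 (2.7 ± 0.25). Totals of the 4 libraries were 24424207 to 29259543 expected counts, against 17079221 to 36796414 over all 60. Replicates of a dose had a correlation of log levels of 0.992 at the high and 0.9921 at the low dose.

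At the medium dose few genes had moved. Between 74 and 14.8 µg/mL 442 genes were called (2.6%), 256 higher and 186 lower. These values share the low-dose libraries with the comparison above, so they are given side by side only. AHNAK2 had 16.4 and 13.8 CPM at the medium dose, SDCBP2 12.7 and 10.5 CPM, DHRS9 2.21 and 1.51 CPM and CYP4F11 3.38 and 2.93 CPM. These genes stood above both low-dose libraries and far under both high-dose ones. FTH1 had 6361 and 6128 CPM and FTL 3696 and 3694 CPM at the medium dose, and AKR1C1 64.3 and 59.6 CPM. LINC00261 had 5.63 and 5.71 CPM, NOX1 10.8 and 11.7 CPM and ATOH1 1.89 and 1.47 CPM. These 3 genes lay between the low and the high dose. MKI67 had 1214 and 1174 CPM, TOP2A 518 and 553 CPM and MCM2 233 and 241 CPM at the medium dose. For MKI67 both values were above the low-dose range, and for TOP2A and MCM2 the doses overlapped. CA9 had 20.4 and 20.9 CPM and MT-CO1 18581 and 17984 CPM.

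The dose change of Aucklandiae Radix differed from that of Polygalae Radix in 7907 genes (46.6%), 4071 with a larger and 3836 with a smaller log2 fold change, by a test of the difference of the dose changes in the same fit, or in 3790 with the left-out library of another herb in the shared spread. These comparisons share no library. From 15.2 to 380 µg/mL Polygalae Radix itself moved 4984 genes (29.4%). In 1179 genes both herbs passed their own test in opposite directions and the difference was called. AHNAK2 changed by 6.07 with Aucklandiae Radix and 0.63 with Polygalae Radix, a difference of 5.44 ± 0.20 (adjusted p 2.64e-25). SDCBP2 changed by 4.95 with Aucklandiae Radix and 0.27 with Polygalae Radix, a difference of 4.68 ± 0.20 (adjusted p 2.67e-23). DHRS9 changed by 6.20 with Aucklandiae Radix and 1.25 with Polygalae Radix, a difference of 4.95 ± 0.50 (adjusted p 2.63e-11). The difference was positive for each of these 3 genes. LINC00261 changed by -6.15 with Aucklandiae Radix and -0.28 with Polygalae Radix, a difference of -5.86 ± 0.23 (adjusted p 2.75e-24). For NR0B2 the log2 fold change was -3.67 with Aucklandiae Radix and 1.15 with Polygalae Radix, a difference of -4.81 ± 0.33 (adjusted p 3.39e-16). The herbs moved it in opposite directions. PKM, the last kinase of glycolysis, changed by 0.74 with Aucklandiae Radix and -1.16 with Polygalae Radix, a difference of 1.90 ± 0.07 (adjusted p 3.51e-25). It rose with Aucklandiae Radix and fell with Polygalae Radix. FTH1, which rose with both herbs, changed by 1.47 with Aucklandiae Radix and 1.02 with Polygalae Radix, a difference of 0.45 ± 0.10 (adjusted p 0.000289). This difference was lost with the wider spread (adjusted p 0.142). FTL changed by 1.96 with Aucklandiae Radix and 0.82 with Polygalae Radix, a difference of 1.14 ± 0.09 (adjusted p 7.08e-14).

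**Figure D4:**
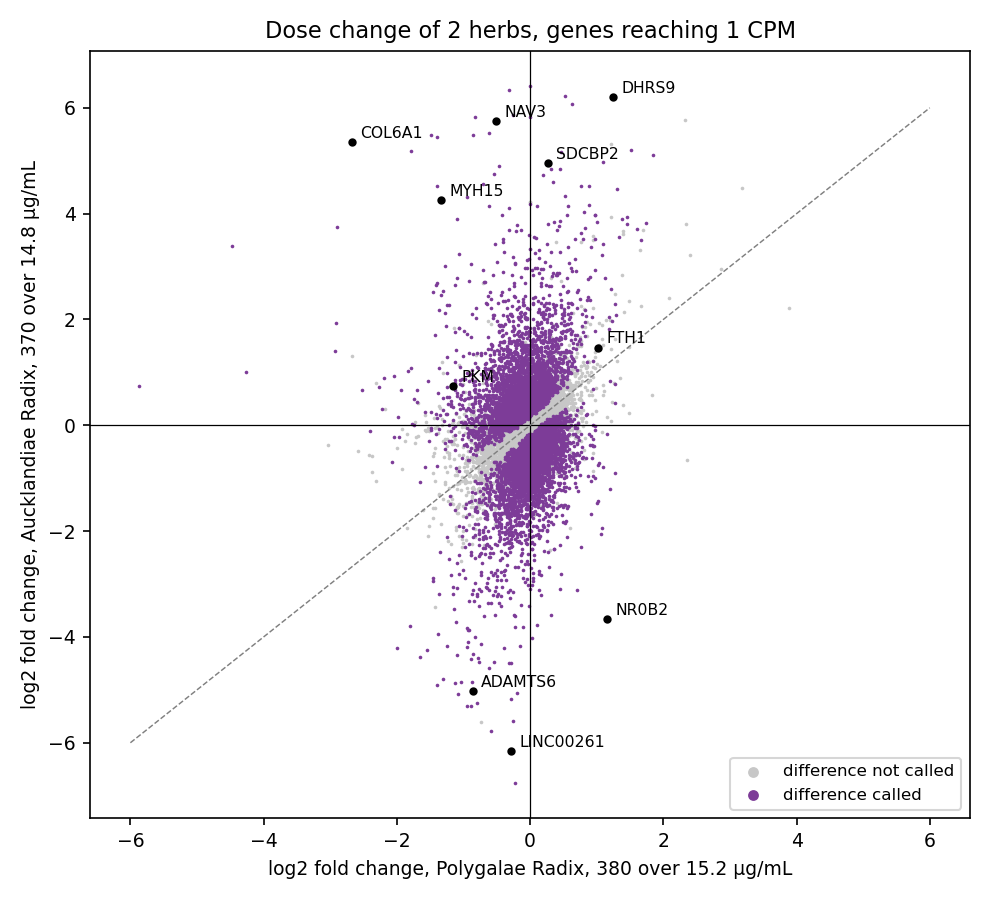
Each point is 1 of 13946 genes that reach a mean of 1 CPM in at least 1 of the 4 groups and have counts in all. The x axis is the log2 fold change of Polygalae Radix (380 over 15.2 µg/mL) and the y axis that of Aucklandiae Radix (370 over 14.8 µg/mL), with equal change on the dashed line. The cloud is taller than wide, with NR0B2 at lower right (1.15, -3.67) and PKM at upper left (-1.16, 0.74).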

How the data were processed

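RNA sequencing of HT29 cells was analysed from 1 table of expected counts per gene, which the authors deposited for 60 libraries in 25 groups. Per the labels' protocols, libraries were directional and sequenced as 100 bp pairs. The submitters' processing notes name FastQC 0.11.9, Trim Galore 0.6.5, STAR 2.7.3a, RSEM 1.3.3 and the GRCh38 build. The sources used here do not state the annotation release or the strand setting. RSEM divides reads among similar genes, and 10.04% of the deposited values were not whole numbers, so they were rounded. Of 60675 gene IDs 56558 had a symbol, and coordinates come from GENCODE 29.

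The quasi-likelihood F test of edgeR 4.0.16 (R 4.3.3) was run after filterByExpr and TMM scaling, with Benjamini-Hochberg adjustment and a threshold of 0.05. A spread shared over 56 libraries of 22 groups left 16978 genes and 34 residual degrees of freedom. It leaves out groups of 1 library and the Saposhnikoviae Radix low-dose library labelled replicate 2. Vehicle libraries enter only this spread. CPM are TMM-scaled. Contrasts were the high minus the low dose, the medium minus the low dose, and the dose change of Aucklandiae Radix minus that of Polygalae Radix. On simulated counts of 16430 genes, a known change was set in 100 genes at 1.5-fold and in 100 at 2-fold. The high minus low test recovered 84% of the 1.5-fold and 96% of the 2-fold changes, with 13 false calls. Every simulated gene had the same spread between replicates (dispersion 0.00263), and changes were set only in genes above a limit on mean counts. Recovery in genes with few counts or with a spread that differs between genes was not tested. Nor was recovery with as large a share of genes changed as was called in the data. Replicates of a dose differed by more than counting noise, with a chi-square per degree of freedom of 4.32 at the high and 4.44 at the low dose. Depth is known as the total per library, and counting intervals cover counting error only.

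Genes named in the text are the 15 largest rises and falls at 5 CPM or more, in each of 64 gene lists the anchor genes and up to 6 called members with the largest changes, the 10 largest gains and losses in CPM, and the 8 largest differences each way from Polygalae Radix. Members and lists were chosen with earlier results of these data known, and 30 gene families defined by symbol were added after the table was seen, with up to 6 called genes named in each. Some genes that this rule picks are not reported here. Alternatives were another scaling, 2 other filters, fewer or more libraries in the fit, a replicate block, each library left out, a test against 1.5-fold and DESeq2 1.42.0.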

Additional observations from a re-analysis of the deposited data

Results flagged for a closer look

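A test of the difference between the dose changes of Aucklandiae Radix and Polygalae Radix picked out the following genes, which are among the largest called differences each way, on the log2 scale, of genes with a mean of at least 5 CPM. On the positive side were COL6A1 (8.04), NAV3 (6.25), CST1 (6.14), MYH15 (5.59), AHNAK2 (5.44), DHRS9 (4.95) and SDCBP2 (4.68). On the negative side were LINC00261 (-5.86), COLCA1 (-4.87), NR0B2 (-4.81), ADAMTS6 (-4.17), AKAP7 (-4.03), CTTNBP2 (-3.99), CD200 (-3.97) and KCNJ3 (-3.92). The value for COL6A1 is the least certain in size, since its 2 Polygalae Radix high-dose libraries had 0 and 0.0849 CPM.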

How the results depend on the processing

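The dose comparison of Aucklandiae Radix called between 8774 and 10354 genes under every alternative except the wider spread and the test against 1.5-fold. Putting the Saposhnikoviae Radix low-dose library labelled replicate 2 back into the shared spread cut the calls to 6174 for the dose change, of which 6171 were called before, and to 3790 for the difference from Polygalae Radix. It called 2697 genes at 2-fold or more and moved 49 counts of gene lists by over 1.5 times, against 1 to 8 under each other alternative that moved any. Leaving out each library in turn gave 8774 to 8994 genes for the dose change, 2815 to 2854 at 2-fold or more, and 7074 to 7294 for the difference. Over all tested genes, deviations between the 2 replicates were hardly correlated between the high and the low dose (0.00811). Genes with few counts enter this value, so it cannot show whether replicate numbers pair the libraries. With a replicate block 10216 genes were called for the dose change, 2906 of them at 2-fold, and 8175 for the difference. A test against 1.5-fold called 3463 genes and DESeq2 called 9454. Of the named genes' changes none reversed, and between 23 and 36 lost their call when 1 library was left out, 77 with the wider spread, 148 in the test against 1.5-fold and 15 in DESeq2. Changes under about 2-fold and counts in lists of small changes, such as ribosomal and mitochondrial genes, are among the least settled. So are larger changes in genes with few counts. FGFR1 (log2 2.27), for one, lost its call without high-dose replicate 3 or without low-dose replicate 2. With 2 libraries a dose, the shared spread carries most of the precision.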
